A study of Glycine soja with 4 samples.

Results

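The sequences described here are the members of the miR160, miR167 and miR390 families in roots of wild soybean (*Glycine soja*), together with the genes listed as cut by them. They were chosen by name. Every name that carries miR160, miR167 or miR390 was taken from the small RNA lists, and every gene listed for these names was taken from the degradome lists. This gave 7 of the 217 distinct small RNA sequences and 8 of the 78 target genes. The series held 4 libraries of the Al-tolerant genotype BW69, with 1 small RNA library and 1 degradome library for each condition. Al-free seedlings stood in nutrient solution of pH 4.5 with 0 µmol/L AlCl3, and Al-treated seedlings in the same solution with 50 µmol/L AlCl3. Root segments of 10 cm from the apex, taken at 7 times from 1 to 96 h, were combined before RNA extraction, so that each library averages over early and late responses. A degradome library sequences the 5′ ends of cut mRNAs, and its list names the genes with a cut at the site paired with a miRNA. With 1 library per condition there was no replicate check, and each test below is one between single libraries, not between conditions. The lists held no level of any mRNA, so the root label was not checked against marker genes.

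Auxin response factors (ARFs) are the transcription factors that bind auxin-responsive promoters, and plants hold several of them in check through small RNAs. In Arabidopsis, miR160 directs the cutting of the mRNAs of ARF10, ARF16 and ARF17, and miR167 that of ARF6 and ARF8. miR390 acts through an intermediate. Bound to the Argonaute protein AGO7, it starts the production of trans-acting siRNAs from TAS3 transcripts, and these siRNAs target ARF2, ARF3 and ARF4. In roots, these circuits are known for their roles in root cap formation, lateral root growth and adventitious rooting.

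The 7 sequences are shown because the reads are counted on them and because close members differ by a single base. They are written 5′ to 3′ as DNA, as in the deposited lists, with bases 2 to 8 in capitals. These bases are called the seed here. The study scored the pairing with targets along the alignment and gave more weight to a core longer than this seed.
PN-miR160b: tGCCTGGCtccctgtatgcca
PN-miR160c: tGCCTGGCtccctgcatgcca
gso-miR167a: tGAAGCTGccagcatgatctg
gso-mir167a-p3: gATCATGTggctgcttcacc
PN-miR390a-1: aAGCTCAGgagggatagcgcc
PN-miR390b: aAGCTCAGgagggatagcacc
PN-mir390b-p3: cGCTATCTatcttgagcttca
PN-miR160b and PN-miR160c differed only by the substitution T15C, and PN-miR390a-1 and PN-miR390b only by G19A. In both tokens the base of the first-named sequence comes first, and positions are counted from 1 at the 5′ end. Each of these pairs shared its seed, and 0 of the other listed sequences had the seed of a member. Of the 7 sequences, 6 were 21 nt and 1, gso-mir167a-p3, was 20 nt long, whereas 35.9% of all listed sequences were 21 nt long. The mature miR160 and miR167 sequences began with T, as did 40.6% of the listed sequences, and the mature miR390 sequences began with A, as did 29.0%. The names ending in p3 denote the partner strand from the 3′ arm of the hairpin, and it was listed for gso-miR167a and PN-miR390b only.

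The distinct listed sequences summed to 30411 reads without Al and 44493 reads with Al. A single sequence outside these families, gso-miR2218, took 23.9% and 42.8% of these reads. Reads were normalized with the factors behind the normalized reads of the study, which were 1.06 for the Al-free and 0.946 for the Al-treated library. The ratio of a sequence is given as log2 of normalized Al-treated over Al-free reads, with an exact 95% interval that covers counting error only. A known miRNA was tested if either library held 10 or more of its reads, and a predicted candidate if either held 20 or more. This left 86 sequences, and all 7 members were among them. The share of reads from the Al-treated library was tested by the exact binomial test, two-sided, with Benjamini-Hochberg adjustment over the 86 sequences.

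Within the 3 families the mature reads did not move together. miR160 was lower, and miR167 and miR390 were higher in the Al-treated library. By the adjusted exact test, gso-miR167a and PN-miR390b rose and PN-miR160b fell, which made 2 members higher and 1 lower. Among all tested sequences, 32.6% were higher and 27.9% were lower by the same test, so the members' shares were at or under those of the lists as a whole. With a fold threshold set at log2 ratios of 1 and -1, only PN-miR390b passed, where 25.6% of all tested sequences passed as higher and 15.1% as lower. The median log2 ratio was -0.39 over the 7 members and 0.14 over the 86 tested sequences. The 7 members include 2 p3 strands with few reads, both with estimates below 0, so this median does not describe the mature sequences. Summed over the mature sequences of the 3 families, most of them reads of gso-miR167a, the log2 ratio was 0.26 (interval from 0.13 to 0.39).

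**Figure D1:**
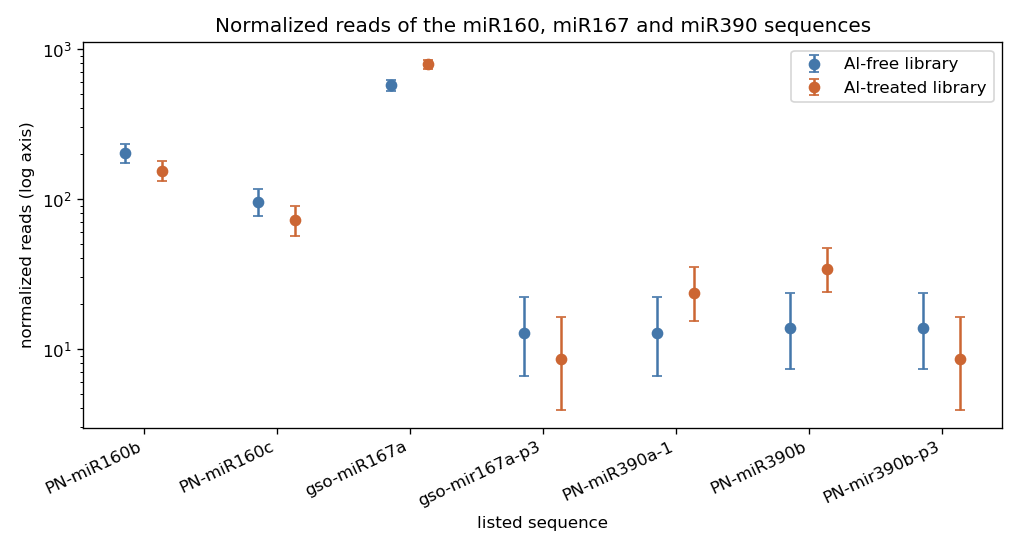
Normalized reads (log axis) of the 7 sequences in the Al-free and Al-treated small RNA libraries, with exact 95% Poisson intervals as bars. gso-miR167a lies far above the others in both libraries, and the miR390 sequences lie lowest, together with both p3 strands.

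miR160, the regulator of the ARF10 group, was represented by 2 sequences. PN-miR160b was read 191 times without Al and 163 times with Al, or 202 and 154 after normalization. Its log2 ratio was -0.39, with an interval from -0.70 to -0.08 (adjusted exact p = 0.0207). PN-miR160b thus fell, but the call was lost when the libraries were scaled by their clean reads (log2 ratio -0.28, adjusted exact p = 0.101) or left unscaled (-0.23, adjusted exact p = 0.203). For PN-miR160c, with 90 and 76 reads, the log2 ratio was -0.40 (-0.86 to 0.05, adjusted exact p = 0.116). The estimate was as low as that of PN-miR160b, and the smaller count left the interval across 0. For every 100 reads of PN-miR160b there were 47.1 reads of PN-miR160c without Al and 46.6 with Al. The odds ratio of this proportion was 0.990 with an exact 95% interval from 0.671 to 1.46. So the sequences on either side of T15C kept nearly the same proportion to each other, though a change of up to these bounds is not detectable at this depth. Summed, miR160 had 281 reads (0.924% of all listed reads, exact interval from 0.820% to 1.04%) without Al and 239 reads (0.537%, from 0.471% to 0.610%) with Al. The log2 ratio of the sum was -0.39 (interval from -0.65 to -0.14). In pooled roots, fewer cells that make a miRNA and less of it per cell cannot be told apart, here and in all results below.

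miR167, the regulator of the ARF6 and ARF8 group, was the most abundant of the families. gso-miR167a was read 541 times without Al, where it ranked 13 among the listed sequences, and 833 times with Al, where it ranked 10. After normalization these were 572 and 788 reads. The log2 ratio was 0.46, a 1.38-fold rise (interval from 1.24-fold to 1.54-fold, adjusted exact p = 2.14e-08). As a share of all listed reads, the miR167 family stood at 1.82% (from 1.67% to 1.97%) without Al and at 1.89% (from 1.77% to 2.02%) with Al. These intervals overlap. The rise of gso-miR167a therefore depended on the scaling, and with the libraries scaled by their summed listed reads its log2 ratio was 0.07 (adjusted exact p = 0.446). These sums include gso-miR2218. With gso-miR2218 left out of the sums, the log2 ratio of gso-miR167a was 0.49 (adjusted exact p = 3.65e-09). Scaling by the median of ratios gave 0.27 (adjusted exact p = 0.00134).

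miR390, which starts the TAS3 pathway, was the least abundant of the families. PN-miR390b was read 13 times without Al and 36 times with Al, or 13.7 and 34.1 after normalization. Its log2 ratio was 1.31, with an interval from 0.36 to 2.35 (adjusted exact p = 0.00726). PN-miR390b rose by this test, but its interval reached well below the fold threshold, and the call was lost under scaling by the summed listed reads (0.92, adjusted exact p = 0.0853). With gso-miR2218 left out of these sums, the call was kept (1.33, adjusted exact p = 0.00707). For PN-miR390a-1, with 12 and 25 reads, the log2 ratio was 0.90 (-0.15 to 2.03, adjusted exact p = 0.141). Its direction was the same as that of PN-miR390b, and it did not pass the test. There were 92.3 reads of PN-miR390a-1 for every 100 reads of PN-miR390b without Al and 69.4 with Al, an odds ratio of 0.755 with an interval from 0.267 to 2.14. Counts this low cannot show whether the sequences on either side of G19A differed in their response. Together the mature miR390 sequences had 25 and 61 reads, a 2.19-fold higher normalized level in the Al-treated library (interval from 1.35-fold to 3.63-fold).

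**Figure D2:**
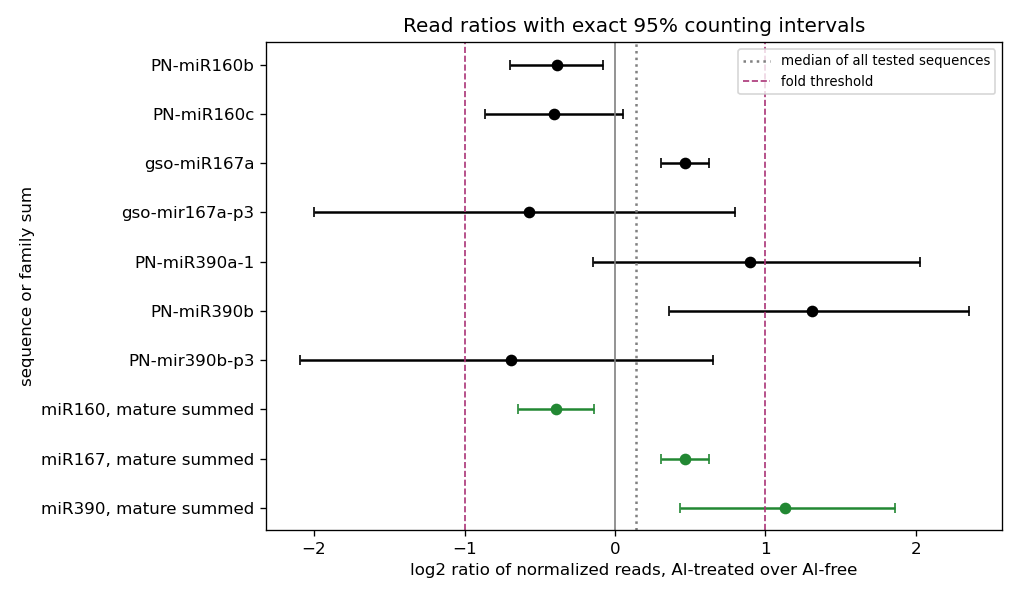
Log2 ratios (horizontal axis, Al-treated against Al-free normalized reads) with exact 95% intervals as bars, for the 7 sequences (black) and for the summed mature sequences of each family (green). Dashed lines mark the fold threshold, and the dotted line marks the median of 0.14 over the 86 tested sequences. The intervals of the summed miR160 sequences lie below 0, and those of miR167 and miR390 lie above 0.

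Because the scaling decided some of these calls, the families were also compared with each other within each library, which needs no scaling. For every 100 reads of mature miR160 there were 193 reads of mature miR167 without Al and 349 with Al. The odds ratio was 1.81, with an exact 95% interval from 1.47 to 2.23. Mature miR390 numbered 8.90 reads for every 100 reads of miR160 without Al and 25.5 with Al, an odds ratio of 2.86 (from 1.71 to 4.92). Both intervals lie above 1. The balance among the families thus shifted away from miR160 by more than counting error in these libraries. Between miR390 and miR167 the odds ratio was 1.58, with an interval from 0.966 to 2.67 that includes 1, so a difference between these families was not shown.

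**Figure D3:**
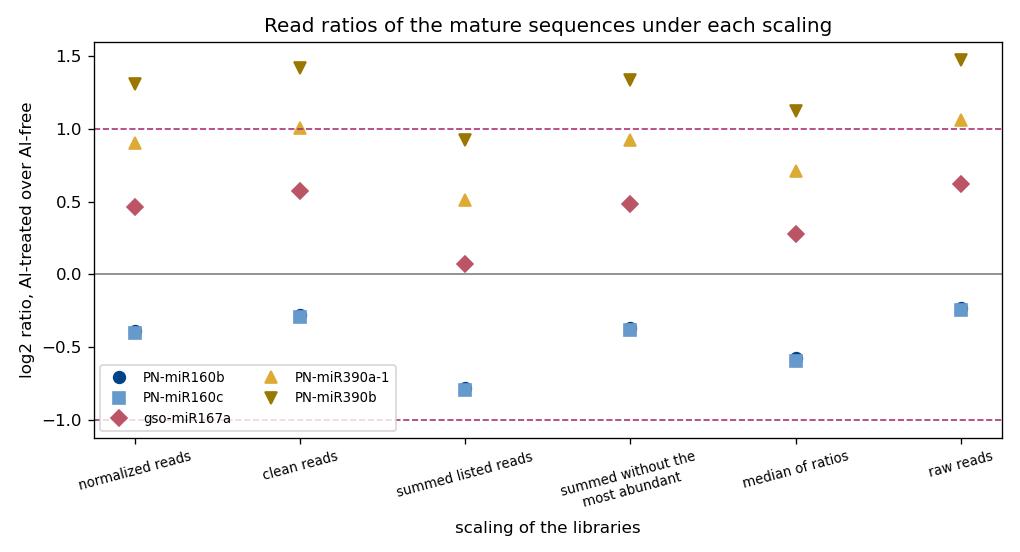
Log2 ratios of the 5 mature sequences under 6 scalings of the libraries. Each scaling shifts all sequences by the same amount, PN-miR160b and PN-miR160c stay below 0 and the other sequences above 0 under every scaling shown, and dashed lines mark the fold threshold.

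The p3 strands were scarce. gso-mir167a-p3 was read 12 times without Al and 9 times with Al, which gave -0.57 as log2 ratio (from -2.0 to 0.80, adjusted exact p = 0.465). PN-mir390b-p3 was read 13 and 9 times, which gave -0.69 (from -2.10 to 0.65, adjusted exact p = 0.369). Neither passed the test. Both estimates were below 0 while those of their mature strands were above 0, and the strands were therefore compared within pairs.

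gso-mir167a-p3 made up 2.17% of the reads of its pair without Al (exact interval from 1.13% to 3.76%) and 1.07% with Al (from 0.490% to 2.02%). The mature strand of miR167 thus dominated in both. PN-mir390b-p3 made up 50.0% of the reads of its pair without Al, with an interval from 29.9% to 70.1%. With Al it made up 20%, with an interval from 9.58% to 34.6%. By Fisher's exact test the odds ratio was 0.256 (from 0.0755 to 0.818), and the exact p of 0.0154 became 0.0794 when adjusted over the 49 strand pairs of the lists. It became 0.0462 when only the 27 pairs with at least 10 reads in each library were tested, of which 9 (33.3%) passed. These values count PN-miR390b alone as the mature strand. With PN-miR390a-1 included, PN-mir390b-p3 had 13 of 38 miR390 reads without Al and 9 of 70 with Al, and this share was not tested. For gso-mir167a-p3 the odds ratio was 0.487 (from 0.180 to 1.27, adjusted exact p = 0.408). Neither pair of these families passed over all pairs, where 12.2% of the pairs did.

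**Figure D4:**
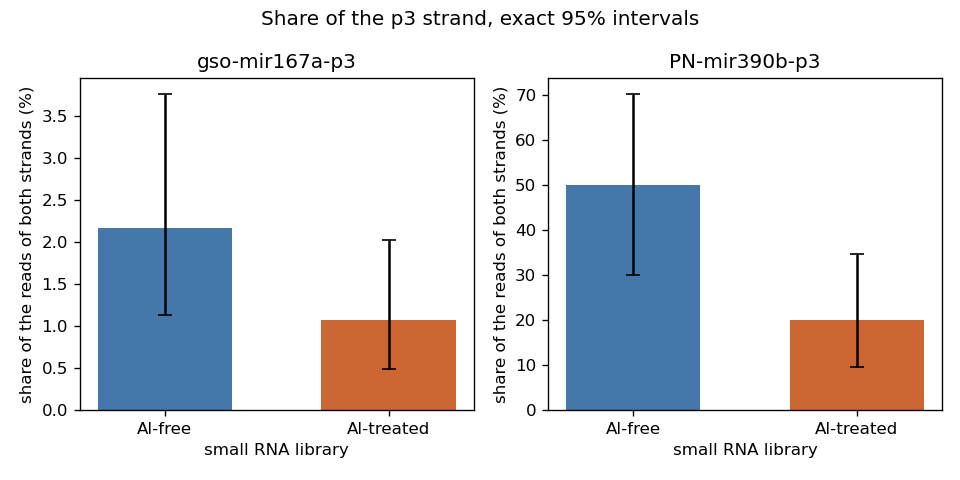
Share of the p3 strand in the reads of both strands, in percent, for gso-mir167a-p3 (left) and PN-mir390b-p3 (right) in each small RNA library, with exact 95% intervals as bars. The vertical axes differ, and the miR390 share was 50.0% and 20% while that of miR167 was 2.17% and 1.07%.

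No p3 or p5 strand was listed under the name miR160. To see whether a partner was listed under another name, every listed sequence was paired antiparallel with each mature sequence, counting Watson-Crick and G-U pairs. gso-mir167a-p3 was the best partner of gso-miR167a, but by a small margin. Its score, which counts pairs and subtracts for mismatches and unpaired bases, was 14 and that of the next sequence 13, and PN-mir169c-p3 had as many paired bases (17) with more mismatches. In contrast, PN-mir390b-p3 was the best partner of PN-miR390b (17 paired bases) and of PN-miR390a-1 (18 paired bases). For PN-miR160b the best partner was PC-57-3p, a predicted candidate of 21 nt, with 18 paired bases and 1 mismatch, and the next sequence had 14 paired bases. PC-57-3p is shown with PN-miR160b, both written 5′ to 3′, and capitals again mark bases 2 to 8. PC-57-3p pairs with the miRNA when read from its 3′ end, so paired bases do not stand above each other.
PC-57-3p: gCATACAGggagtcaagcaga
PN-miR160b: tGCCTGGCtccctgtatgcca
With PN-miR160c, PC-57-3p had 17 paired bases and 2 mismatches. It was read 20 times without Al and 27 times with Al, which gave a log2 ratio of 0.27 (from -0.61 to 1.19, adjusted exact p = 0.627). The pairing is a description of the sequences, and the precursor of PC-57-3p was not analysed here.

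The degradome lists gave target genes for miR160 and for the partner strand of miR167. PN-miR160 was listed with 7 genes, Glyma10g35480, Glyma11g20490, Glyma12g08110, Glyma12g29720, Glyma13g02410, Glyma14g33730 and Glyma20g32040, all annotated by the study as auxin response factors. The lists use the name PN-miR160 without a letter, so PN-miR160b and PN-miR160c cannot be told apart as the source of the cuts. gso-mir167-3p was listed with 1 gene, Glyma13g04540, annotated as a class 3 lipase, a lipid-cleaving enzyme. This name differs from the gso-mir167a-p3 of the small RNA lists, which is the name the study gives to the miRNA it lists for this gene. The study placed the site in its category IV, where the reads at the site do not exceed the median of the transcript. For mature miR167 and for miR390, 0 genes were listed in either library, and so no auxin response factor was listed for them. The identifiers are those of *Glycine max* gene models, to which the study aligned its reads. The number before the letter g is that of the chromosome, and the 7 auxin response factor genes lie on 6 chromosomes, with Glyma12g08110 and Glyma12g29720 on the same one. Coordinates and transcript sequences of these genes were not analysed here, and 0 of the 8 identifiers matched the RefSeq gene table of *G. soja* W05. The search was by identifier only, so it does not show whether these genes have counterparts in *G. soja*.

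All 8 genes were in the Al-treated list and none was in the Al-free list. The background was high, since the Al-treated list was the longer one, with 70 genes against 41. Of all 78 genes, 47.4% were in the Al-treated list only, and of the 70 genes of other miRNAs 29 (41.4%) were. The lists hold no number of reads, so it is not known how close a gene came to being listed in the Al-free library. Absence from that list does not show that a gene was not cut. Of the 23 miRNA names in the lists, 6 had all their genes in the Al-treated list only, PN-miR160 and gso-mir167-3p among them. PN-miR160 had the most genes of these names, 7, and the next, PN-miR394, had 4. None of the 8 genes was listed for a second miRNA name. For miR160 the values of the libraries stood in opposite order, with 281 reads of the miRNA and 0 listed auxin response factor genes without Al, and 239 reads and 7 listed genes with Al. The reads and the lists come from different libraries, and a relation between them was not tested.

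**Figure D5:**
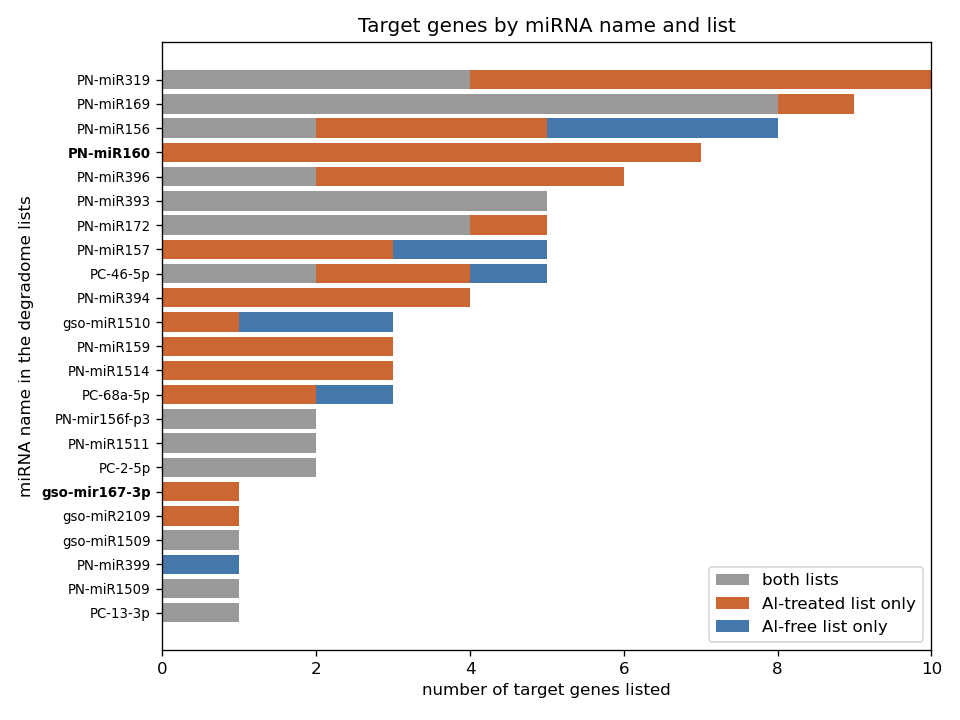
Number of target genes listed for each of the 23 miRNA names, split into genes in both degradome lists (grey), in the Al-treated list only (orange) and in the Al-free list only (blue). The names PN-miR160 and gso-mir167-3p are in bold, and their bars of 7 genes and 1 gene are orange throughout.

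Sequences of miR393 and miR164, which also act in the auxin pathway, were taken for comparison. miR393 is known in Arabidopsis to target the auxin receptors of the TIR1 family, and miR164 to target NAC1, a transcription factor of lateral root formation. PN-miR393-2 was read 19 times without Al and 36 times with Al, and its log2 ratio was 0.76 (from -0.08 to 1.65, adjusted exact p = 0.118). PN-miR164 fell from 95 to 12 reads, and its log2 ratio was -3.14 (from -4.15 to -2.27, adjusted exact p = 1.25e-18). PN-miR393-1, with 2 and 6 reads, and PN-miR164a, with 1 and 1, were under the read minimum. Of the 2 tested sequences, 1 thus passed, in the lower direction, where 27.9% of all tested sequences did, so that nothing about these miRNAs as a group follows. All 5 genes listed for PN-miR393 were in both degradome lists, as were 42.3% of all listed genes, and 0 genes were listed for miR164.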

How the data were processed

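The authors trimmed the small RNA reads and removed those that matched Rfam or repeat databases. Reads that aligned to *G. max* mRNAs, by far the largest class, were removed as well. Known miRNAs and predicted candidates were found among the remaining reads with ACGT101-miR 4.2, and most of these reads had no hit. The deposited lists gave, for each miRNA name and its sequence, counts of reads that had not been normalized. Names that shared a sequence carried the same count, and each distinct sequence was counted once. The degradome targets were called by the authors with CleaveLand 3.0 and ACGT301-DGE 1.0 on *G. max* transcripts, and the deposited lists held names only. Repeated lines were counted once.

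Counts were scaled with the factors that turn the raw into the normalized reads of the study, taken from its most abundant sequence. The method behind these factors is not given in the sources used here. Exact binomial and Fisher's tests, Clopper-Pearson and Poisson intervals and conditional odds ratios came from Python 3.11.15 (SciPy 1.17.1, NumPy 2.4.6), and matplotlib 3.10.9 drew the figures. A strand was paired with the mature name that it extends, and with the more abundant sequence where this name had several. In pairing, a pair scored 1, a mismatch -1 and an unpaired base -2. The binomial procedure was tested on simulated independent Poisson counts. These hold no variation between plants or from PCR, so the procedure was not tested for such variation.

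Every sequence and gene of miR160, miR167 and miR390 was named, miR164 and miR393 were given in brief, and so was the best pairing sequence of each mature member. The members and lists were chosen with earlier results of these data known. Alternatives were other scalings, read minimums, a pseudocount of 1, counting by name, Fisher's exact test, and targets counted as pairs. With 30411 and 44493 listed reads, depth set the precision. Intervals cover counting error only, and they treat reads as independent molecules. Reads amplified by PCR are not independent, so the intervals can be too narrow. Variation between libraries of the same condition is not covered.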

Additional observations from a re-analysis of the deposited data

How the results depend on the processing

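No alternative reversed the direction of a sequence or family. Scaling by the summed listed reads, which shifts every log2 ratio by -0.39, gave log2 ratios of -0.79 for PN-miR160c (adjusted exact p = 0.00104), 0.0737 for gso-miR167a and 0.92 for PN-miR390b, sums of -0.78 for miR160 and 0.0576 for miR167, and 23 sequences at or below -1. Fisher's exact test against the remaining reads gave the same log2 ratios. The median of ratios gave -0.59 for PN-miR160c (adjusted exact p = 0.0173) and 0.26 for summed miR167, which was 0.61 without scaling. PN-miR160b was at -0.28 with clean reads and -0.23 without scaling. The difference in the share of PN-mir390b-p3, -30.0 percentage points as Al-treated minus Al-free, passed among the 27 deeper pairs, as did 9 of these pairs in all.

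Over all sequences, the counts past the fold threshold were 22 higher and 13 lower. They were 61 and 37 without a read minimum, 7 and 8 with a minimum of 50 reads, and 9 and 7 with the minimum met in both libraries. Of the last 2 settings, the former left 15 sequences higher by the adjusted exact test and the latter 17, against 28. A minimum of 10 reads in both libraries left out no mature member, as the lowest count was 12, so it could not change the odds ratios between families. Counting targets as pairs, or leaving out genes of several miRNAs, could not change the members' 8 genes, since none was listed for a second name. Over all miRNAs, 42 of 88 pairs were in the Al-treated list only. With genes of several miRNAs left out, 34 of 68 genes were. The direction of PN-miR160b, PN-miR160c, gso-miR167a, PN-miR390a-1 and PN-miR390b held under every scaling. Their counts ran from 12 to 833 reads in single libraries, and PN-miR160c and PN-miR390a-1 were not called with the main scaling. No paired analysis was possible because each condition had 1 library.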
